A study of Mus musculus with 11 samples.

Results

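The genes described are Adam1a, Adam2, Adam3, Adam5, Adam18 and Adam32, a set named for ADAM proteins of the sperm surface. They were chosen by gene symbol, and the ADAM1a protein itself stays inside germ cells. All 6 were found among the 20265 genes of the UMI table that lie on autosomes, X and Y. The data are single-cell transcriptomes of adult testis from 3 mice that carry a Dazl-GFP reporter, in which GFP follows the germ cell gene Dazl. Live GFP+ cells were placed by a cell sorter into single wells, and polyadenylated RNA was counted at its 3′ end with unique molecular identifiers (UMIs, random tags that mark single molecules). The animals were untreated, and neither strain nor exact age is given beyond adult. Mouse 1 gave 8 libraries by CEL-Seq1, mouse 2 gave 1 library by CEL-Seq2 and mouse 3 gave 2 libraries by CEL-Seq2, of which 1 was labelled as gate-sorted and all other libraries as index-sorted. The replicate is the mouse (n = 3), and the CEL-Seq protocol cannot be told apart from mouse 1.

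ADAM proteins are membrane proteins with a prodomain, a metalloprotease domain and a disintegrin domain, and several are made only in male germ cells. ADAM1a and ADAM1b are the alpha chains and ADAM2 is the beta chain of fertilin, a complex assembled in the endoplasmic reticulum of developing germ cells. ADAM3, also called cyritestin, is needed on sperm for passage into the oviduct and for binding to the egg coat, and it reaches the surface only when ADAM1a, ADAM2 and a set of chaperones are present. ADAM5, ADAM18 and ADAM32 are testis members of the family whose roles are less well known.

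The coding sequences show what these genes share and where they differ, so the stretch around the disintegrin loop is given for each, read 5′ to 3′ on the coding strand from GENCODE M21 transcripts (GRCm38). Capitals mark the codon pair for cysteine and aspartate with the codon before it, which lies at the tip of the loop.

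Adam1a: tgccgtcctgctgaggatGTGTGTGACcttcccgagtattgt

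Adam2: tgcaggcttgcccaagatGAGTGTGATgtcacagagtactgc

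Adam3: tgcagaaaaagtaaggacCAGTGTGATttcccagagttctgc

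Adam5: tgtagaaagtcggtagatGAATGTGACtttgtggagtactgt

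Adam18: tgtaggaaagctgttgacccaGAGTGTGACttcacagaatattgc

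Adam32: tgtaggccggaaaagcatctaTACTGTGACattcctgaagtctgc

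These stretches lie, each within 1 exon on the minus strand, at chr5:121519708-121519749 for Adam1a, chr14:66043173-66043214 for Adam2, chr8:24695274-24695315 for Adam3, chr8:24786267-24786308 for Adam5, chr8:24637196-24637240 for Adam18 and chr8:24884571-24884615 for Adam32. The codon before the marked pair differs among most of the genes, being GAG in Adam2 and Adam18, GAA in Adam5, CAG in Adam3, GTG in Adam1a and TAC in Adam32. The disintegrin loop pattern was searched in frame, and 33 of 21489 mouse coding sequences (0.154%) hold it. The zinc-binding codon pattern of active metalloproteases was found in Adam1a and in none of the other 5 genes, and 69 of the 21489 coding sequences (0.321%) hold it. A match describes the codons and does not show that the protein is active. The zinc-binding codons of Adam1a lie at chr5:121520089-121520121, with capitals for the histidine and glutamate codons of the pattern.

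Adam1a: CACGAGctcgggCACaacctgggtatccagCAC

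Wells with at least 1000 UMIs, 1448 of 1920, were kept as cells, and 1221 of them fell into 12 stages ordered by diffusion pseudotime from spermatogonia to late pachytene spermatocytes. Each mouse had 13 to 55 cells in every stage, and total counts per mouse ran from 5866174 UMIs (mouse 2) to 18032562 (mouse 3). By their markers stages 2 and 3 were differentiating spermatogonia-like and stages 6 to 9 leptotene and zygotene-like (early meiotic prophase, when chromosomes pair). Stages 10 to 12 were pachytene-like (paired chromosomes). The name of stage 9 is less clear. Its leptotene and zygotene markers summed to 4810, 5114 and 4433 CPM in mice 1 to 3, and its pachytene markers to 4715, 5429 and 8155 CPM. In stage 8 the pachytene markers were at 2097, 2936 and 3595 CPM. Stage 9 may therefore reach into early pachytene. Stages 1, 4 and 5 kept no name: stage 1 was led by Sdc4, Ccnd2 and Ret, stage 4 by Esx1 and Rec8, and stage 5 by Stra8 and Clu, the latter also on the Sertoli list. Undifferentiated spermatogonia markers were highest in stage 1 in every mouse. They summed to 1043, 1469 and 1308 CPM there in mice 1 to 3, against 241, 285 and 282 CPM in stage 2. Differentiating spermatogonia markers summed to 2280, 3364 and 3243 CPM in stage 1. Stage 12 was led by Hspb9, 1700020D05Rik and Tcp10c. Levels are UMIs per 1000000 UMIs of the cells summed (CPM), and tests used edgeR's quasi-likelihood F test on counts summed per mouse and stage, with the mouse as a block and Benjamini-Hochberg adjustment over the 5139 genes tested. A gene was called at an adjusted p under 0.05. The order of the last pair of stages was not settled by the stagings: with staging on the even-numbered autosomes, and with staging without alignment of the mice, the cells with Hspb9 and Ggn among their leading genes came second to last. From stage 11 to stage 12, leptotene and zygotene markers fell from 2204 to 1507, 2293 to 1339 and 1980 to 1245 CPM in mice 1 to 3. Pachytene markers went from 8263 to 7196, 12972 to 13114 and 12947 to 13326 CPM. Round spermatid markers went from 110 to 138, 84.6 to 172 and 54.3 to 72.3 CPM, after 122, 108 and 61.2 CPM in stage 10. Which order is right was not tested. Dazl was counted in all mice, at 1301 to 1582 CPM in stage 1 and 237 to 322 CPM in stage 12. All 7 Sertoli cell markers had UMIs in stage 1, and their sum ranged from 284 to 335 CPM there. It ranged from 301 to 979 CPM in stage 5 and from 13.8 to 24.8 CPM in stage 12, where Rhox5 was at 0. In stage 1 most of these UMIs were of Ctsl (412), followed by Clu (102), Wt1 (63), Amhr2 (30), Rhox5 (20), Sox9 (16) and Cldn11 (13). The part of these markers in the results was not tested.

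Adam2, Adam3, Adam5, Adam18 and Adam32 passed the expression filter, and all 5 rose from stage 1 to stage 12. Of all genes tested, 36.4% were called higher and 39.9% lower in that comparison, so a call alone does not set these genes apart; the fold changes are given for their size. The log2 fold change was 5.86 ± 0.28 (SE) for Adam5 (edgeR adjusted p = 4.06e-21), 5.48 ± 0.32 for Adam3 (1.37e-18), 5.002 ± 0.26 for Adam2 (3.18e-20), 4.86 ± 0.24 for Adam32 (6.94e-21) and 4.84 ± 0.45 for Adam18 (1.37e-12). The median over these 5 genes was 5.002, against -0.08 over all genes tested. The levels were higher in stage 12 than in stage 1 in 3 of 3 mice for each of the 5 genes. The stage 1 reference of Adam3 was small, at 4, 2 and 10 UMIs (5.16, 5.49 and 9.73 CPM) in mice 1 to 3. Of those in mouse 3, 7 came from the gate-sorted library. Adam18 had 7 UMIs in stage 1 over all mice. The size of the fold depends on which cells form the last stage. With staging on the even-numbered autosomes the log2 fold change from the first to the last stage was 3.28 for Adam3, 2.98 for Adam18, 3.82 for Adam32, 4.85 for Adam5 and 4.79 for Adam2. Without alignment it was 3.37, 2.62, 3.52, 4.61 and 4.46 in the same order, and all 5 stayed called higher. TMM scaling raised fold changes here: without a composition factor the median of all genes lay 0.42 lower on the log2 scale, and 36.7% instead of 47.7% of the called genes were higher, while the 5 genes stayed called higher under both.

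**Figure D1:**
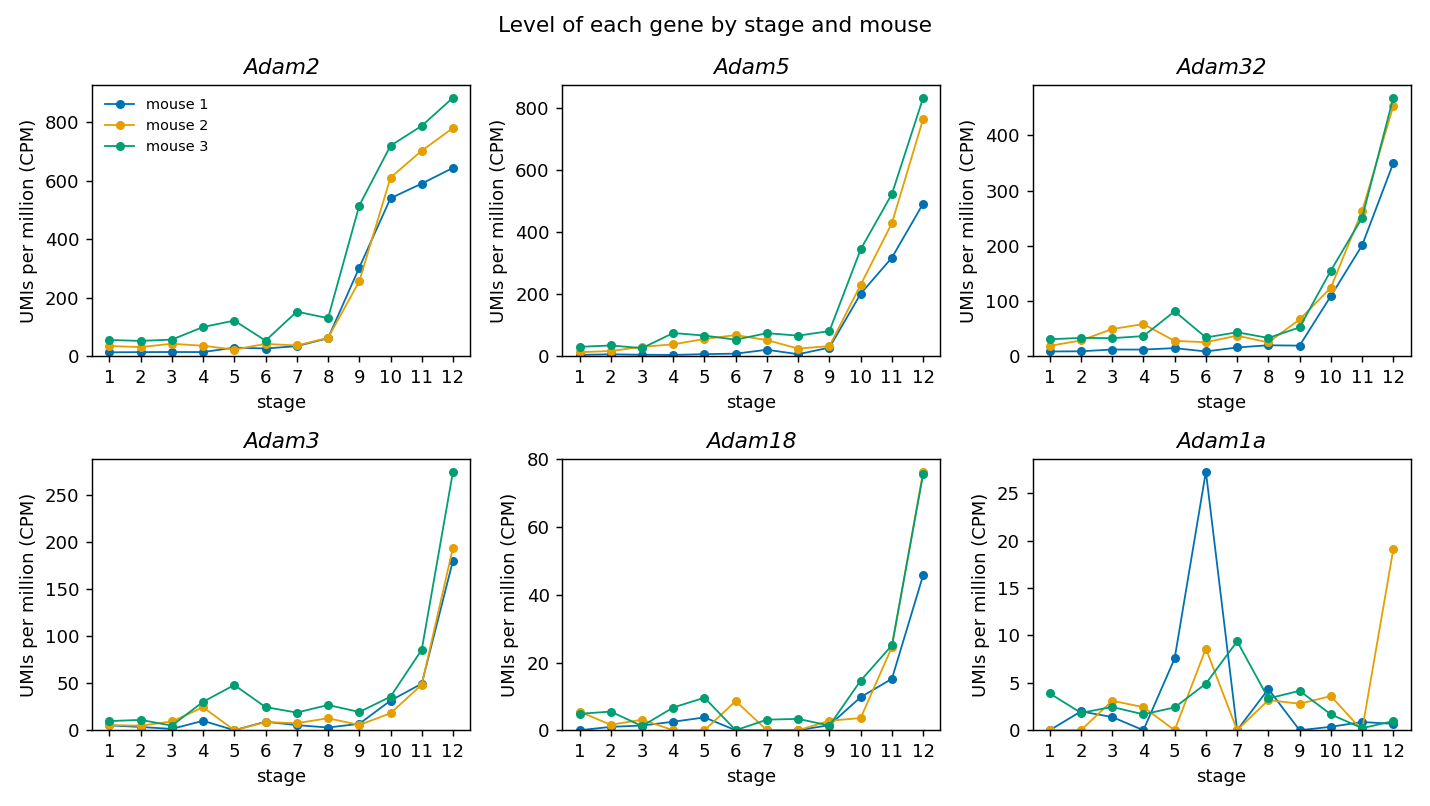
Level of each gene in CPM (vertical axes start at 0 and differ between panels) against stage (1 to 12), with 1 line per mouse. Adam2 climbs between stages 8 and 10 and then flattens, Adam5 and Adam32 climb from stage 10 on, Adam3 and Adam18 have most of their climb between stages 11 and 12, and Adam1a shows no common course among the mice, with 73 UMIs in all stages together.

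Adam2, the beta chain of fertilin, had its largest step on the log2 scale into stage 9. Its level was 14.2 CPM in mouse 1, 35.7 in mouse 2 and 56.4 in mouse 3 in stage 1, and 62.4, 63.7 and 131 CPM in stage 8. It stood at 304, 257 and 516 CPM in stage 9. In stage 9 every mouse lay above every mouse of stage 8. The step from stage 8 to stage 9 was 2.21 ± 0.24 on the log2 scale (edgeR adjusted p = 1.07e-09; 17.7% of all genes were called higher in this step). In stage 10 the level was 541, 611 and 720 CPM, a further step of 0.95 ± 0.20 (adjusted p = 0.000263). The next steps were smaller and missed the threshold, at 0.30 ± 0.19 into stage 11 (adjusted p = 0.456) and 0.22 ± 0.18 into stage 12 (adjusted p = 0.553), where the level was 645, 781 and 884 CPM. Mouse 1 was the lowest and mouse 3 the highest in each of stages 10, 11 and 12. Against stage 1, Adam2 was called higher from stage 7 on, by 0.95 ± 0.34 in stage 7 (adjusted p = 0.0171; 21.2% of all genes were called higher) and 1.31 ± 0.30 in stage 8 (adjusted p = 0.000251; 24.6% called higher). From stage 1 to stage 7 the level went from 14.2 to 35.3 CPM in mouse 1. It went from 35.7 to 37.6 CPM in mouse 2 and from 56.4 to 153 CPM in mouse 3. That early call was not steady. Without mouse 3, and without the gate-sorted library of mouse 3, the onset by the test was stage 8. With all mice it was stage 8 in DESeq2 and stage 9 without the mouse block. It stayed at stage 7 without mouse 1 and without mouse 2.

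Adam5 and Adam32 had their largest step on the log2 scale into stage 10. Adam5 measured 28.7, 33.5 and 81.8 CPM in mice 1 to 3 in stage 9, and 202, 231 and 345 CPM in stage 10. It went on to 318, 429 and 523 CPM in stage 11 and 492, 765 and 833 CPM in stage 12. The lowest mouse of stage 10 was above the highest mouse of stage 9, and the step into stage 10 was 2.61 ± 0.24 (edgeR adjusted p = 5.17e-11; 16.1% of all genes were called higher). The steps into stage 11 (0.84 ± 0.19, adjusted p = 0.00701; 2.26% of all genes called higher) and stage 12 (0.79 ± 0.18, adjusted p = 0.00274; 5.66% called higher) were about equal in size, and both missed the threshold without mouse 2, at adjusted p = 0.326 and 0.133.

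Adam32 had 19.6, 67.0 and 52.7 CPM in stage 9 and 109, 124 and 155 CPM in stage 10. It reached 201, 263 and 251 CPM in stage 11 and 350, 453 and 468 CPM in stage 12. In stages 10, 11 and 12 all mice were higher than any mouse in the stage before. The steps were 1.85 ± 0.22 into stage 10 (edgeR adjusted p = 2.19e-08), 0.98 ± 0.17 into stage 11 (adjusted p = 0.000423) and 0.91 ± 0.16 into stage 12 (adjusted p = 8.52e-05), and the step into stage 11 had an adjusted p of 0.0532 without mouse 2. Neither gene passed the test in the step into stage 9, at 0.74 ± 0.33 for Adam5 (adjusted p = 0.0869) and 0.73 ± 0.32 for Adam32 (adjusted p = 0.0770; 0.0261 without mouse 1).

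Before stage 9, Adam5 ranged from 5.02 to 75.5 CPM and Adam32 from 9.03 to 81.8 CPM over mice and stages. Against stage 1, Adam5 was called higher in stages 4, 5 and 7 but not in stages 6 and 8, and Adam32 in stage 5. The share of all genes called higher was 15.7% in stage 4 and 19.4% in stage 5. From stage 9 on both were called higher at every stage, by 1.63 ± 0.35 for Adam5 (edgeR adjusted p = 0.000103) and 1.11 ± 0.31 for Adam32 (adjusted p = 0.00211) in stage 9, where 28.3% of all genes were called higher. In stage 11 it was 35.7%. This onset of Adam5 moved with the libraries: it was stage 4 without mouse 1 and stage 6 without the gate-sorted library, in both cases before that of Adam2, at stages 7 and 8. It was stage 10 without the mouse block.

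Adam3 and Adam18 had their largest rise in CPM at the end of the order, as did Adam5 and Adam32. On the log2 scale the largest step of Adam18 was into stage 10, like that of Adam5 and Adam32. In stage 11 Adam3 stood at 27.8 ± 3.11% and Adam18 at 32.8 ± 0.58% of the stage 12 level (SD, n = 3). Adam5 stood at 61.2 ± 4.49% and Adam32 at 56.4 ± 2.44%. Adam3, the cyritestin gene, measured 6.80, 5.58 and 19.4 CPM in stage 9 and 31.5, 18.03 and 35.6 CPM in stage 10. It measured 49.5, 48.4 and 85.6 CPM in stage 11 and 180, 194 and 275 CPM in stage 12. The mice of stages 9 and 10 overlap, while the lowest mouse of stage 12 had more than the highest of stage 11. The steps were 1.66 ± 0.36 into stage 10 (edgeR adjusted p = 0.000425), 1.12 ± 0.23 into stage 11 (adjusted p = 0.00262) and 1.92 ± 0.19 into stage 12 (adjusted p = 4.28e-09). The middle step missed the threshold without mouse 2 (adjusted p = 0.0752) or without mouse 3 (adjusted p = 0.134). Adam3 is among the genes with the largest fold in stage 12, but it took no part in the clustering, which used odd-numbered autosomes only.

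Adam18 was counted at the lowest number of UMIs of the 5, 880 in all stages. It had 0 UMIs of 774850 in mouse 1 in stage 1, which allows a level of up to 3.87 CPM, and 5.49 and 4.86 CPM in mice 2 and 3. It measured 1.51, 2.79 and 1.39 CPM in stage 9, 9.78, 3.61 and 14.7 CPM in stage 10, 15.2, 24.6 and 25.1 CPM in stage 11, and 45.8, 76.4 and 75.7 CPM in stage 12. No mouse of stage 12 overlaps with stage 11. Between stages 10 and 11 the gap was narrow, at 14.7 CPM in mouse 3 against 15.2 CPM in mouse 1, from 35 UMIs each. How many of all genes tested separate between stages in this way was not counted, for Adam18 or the other 4 genes. Its steps were 2.68 ± 0.63 into stage 10 (edgeR adjusted p = 0.00131; 0.0773 without mouse 3), 1.06 ± 0.32 into stage 11 (adjusted p = 0.0640; 0.0298 without mouse 1) and 1.69 ± 0.27 into stage 12 (adjusted p = 2.65e-05). Both Adam3 and Adam18 were called higher than in stage 1 from stage 10 on, by 2.44 ± 0.40 (adjusted p = 8.33e-07) and 2.09 ± 0.56 (adjusted p = 0.00114) in that stage, with 33.3% of all genes called higher.

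**Figure D2:**
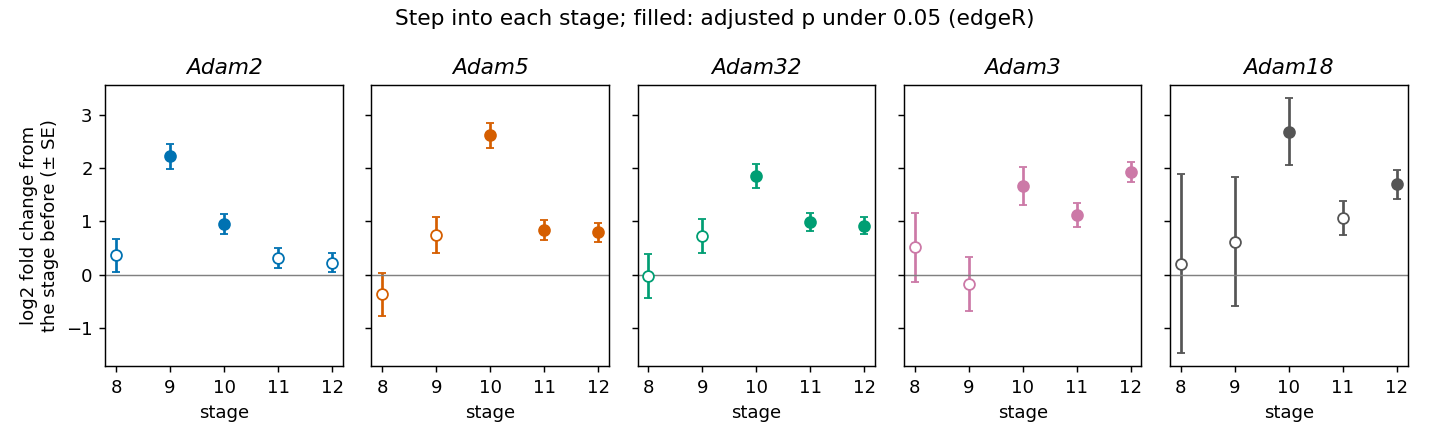
Log2 fold change of each gene from the stage before (vertical axis, ± SE) for stages 8 to 12, with filled points for an edgeR adjusted p under 0.05. The largest step of Adam2 is into stage 9, that of Adam5, Adam32 and Adam18 into stage 10, and that of Adam3 among these stages into stage 12.

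Adam3 had a small early call as well. Its level was 10.03, 24.4 and 30.2 CPM in stage 4, from 4, 10 and 18 UMIs, after 1.40, 9.31 and 4.91 CPM in stage 3. The step into stage 4 was 2.25 ± 0.59 (edgeR adjusted p = 0.0286; 1.67% of all genes were called higher). In mouse 3 all 18 of these UMIs came from the gate-sorted library, and the index-sorted library had 0, which allows up to 16.4 CPM. Without the gate-sorted library the step was 1.79 (adjusted p = 0.255), and it missed the threshold without mouse 2 (adjusted p = 0.151) or mouse 3 (adjusted p = 0.336) as well. In stage 5 Adam3 was at 0 in mice 1 and 2 and at 48.1 CPM in mouse 3, again with all 20 UMIs from the gate-sorted library.

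Adam1a, the alpha chain of the fertilin form that stays inside germ cells, was too low to test. It had 90 UMIs in 55 wells over the whole table and 73 UMIs in the stages, with at most 4 UMIs in any mouse and stage except stage 12 of mouse 2. That sum held 18 UMIs, 16 of them in 1 cell, and the 2 that remain are like the 3 and 4 UMIs of mice 1 and 3 in the same stage. Its highest level fell in stage 6 in mouse 1, from 3 UMIs, in stage 12 in mouse 2 and in stage 7 in mouse 3, from 3 UMIs, so no onset or peak can be given. In 4 alternatives in which it entered the test, its log2 fold change between the first and the last stage ran from -0.97 (edgeR adjusted p = 0.442, staging without alignment) to 3.47 (adjusted p = 0.130, reads table). The annotated gene overlaps Mapkapk5 on the same strand and Tmem116 on the other, and the table does not say how reads in the overlap were assigned.

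The paralogue Adam1b gave 1095 UMIs in the stages and rose by 5.68 ± 0.48 on the log2 scale from stage 1 to stage 12 (edgeR adjusted p = 1.76e-13), from 2.48 ± 2.78 to 71.0 ± 7.52 CPM (SD, n = 3). Adam1a and Adam1b share 82.0% of the aligned bases of their coding sequences, and 58.7% over the last 400 bases of the transcript, the end from which this method counts. Both carry the same zinc-binding codon stretch. The pairs among the 6 genes share 59.8% to 63.8% of their aligned coding bases. Over the last 400 bases they share 57.1% to 66.05%, a range that holds the 58.7% of Adam1a and Adam1b.

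All 5 genes that could be followed had their highest level in stage 12 in each of the 3 mice, and they approached it in an order. In stage 10, Adam2 stood at 83.9%, 78.3% and 81.4% of its own stage 12 level in mice 1 to 3. Adam5 stood at 41.1%, 30.2% and 41.4%, and Adam32 at 31.3%, 27.5% and 33.2%. Adam3 stood at 17.5%, 9.29% and 12.95%, and Adam18 at 21.3%, 4.72% and 19.4%. In stage 10, Adam2 was above Adam5 and Adam32 in every mouse, and these were above Adam3 and Adam18 in every mouse. Adam5 was above Adam32 in 3 of 3 mice, but the ranges of these genes over mice overlapped, as did those of Adam3 and Adam18. The first stage at 50% of the highest level was stage 10, 10 and 9 for Adam2, stage 11 in all mice for Adam5 and Adam32, and stage 12 in all mice for Adam3 and Adam18; this mark was chosen after the values were seen. With 3 mice an exact two-sided permutation test between genes cannot go below 0.25, so this order is a description.

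**Figure D3:**
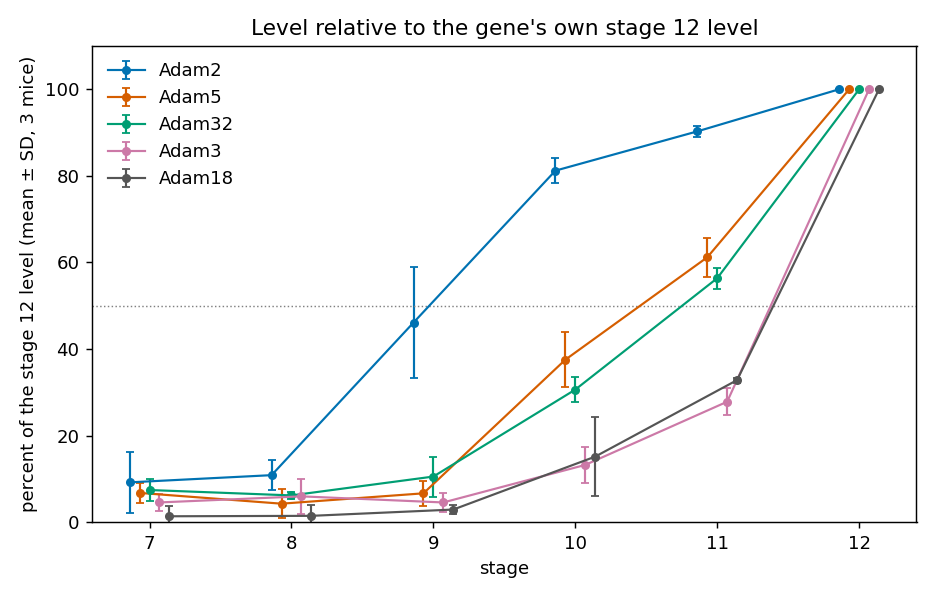
Level of each gene as a percentage of its own stage 12 level (mean ± SD of 3 mice) in stages 7 to 12, with a dotted line at 50%. Adam2 is at 81.2 ± 2.82% in stage 10, Adam5 at 37.5 ± 6.39%, Adam32 at 30.6 ± 2.91%, Adam18 at 15.1 ± 9.09% and Adam3 at 13.2 ± 4.10%.

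With the other order of the late cells the genes peaked elsewhere. With staging on the even-numbered autosomes all 5 had their highest mean in stage 11 of 12, and without alignment in stage 7 of 8, in both cases the cells with Hspb9 and Ggn among their leading genes. The peak therefore goes with that group of cells, and whether it is the last step or the one before it depends on the staging. A 10% mark set the onset by level at stage 10 in all 3 mice for Adam5, but for the others it spread widely: stages 9, 9 and 4 for Adam2, 10, 4 and 4 for Adam3, 10, 6 and 5 for Adam18 and 10, 3 and 5 for Adam32.

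The share of cells with a UMI of each of the 5 genes was higher in stage 12 than in stage 1, but it did not follow the level at every stage. Median counts per cell ran from 4710 to 6742.5 UMIs over the mice in stage 7 to between 54133 and 109632 in stage 12, so each cell was thinned to 1000 UMIs before shares were compared. Thinned, 1.45 ± 2.51% of cells (SD, n = 3) had an Adam2 UMI in stage 1, 6.29 ± 0.86% in stage 8, 27.8 ± 14.0% in stage 9, 52.1 ± 7.25% in stage 10, 44.1 ± 14.4% in stage 11 and 53.3 ± 6.34% in stage 12. Unthinned, the shares were 49.1 ± 13.9% in stage 1, 29.1 ± 9.28% in stage 7, 45.4 ± 9.61% in stage 8, 90.9 ± 9.56% in stage 9 and 100% in stage 12. Thinned shares in stage 12 were 51.4 ± 14.3% for Adam5, 31.3 ± 1.83% for Adam32, 14.0 ± 5.93% for Adam3 and 8.18 ± 0.43% for Adam18, against 2.08 ± 3.61%, 1.04 ± 1.80%, 0% and 0% in stage 1. A thinned share of 0% reflects the depth kept, since the same stage 1 cells unthinned had an Adam3 UMI in 16.2 ± 3.29% and an Adam18 UMI in 9.38 ± 8.27%. Unthinned, Adam5 was found in 30.4 ± 16.9% and Adam32 in 33.3 ± 12.7% of stage 1 cells. In stage 12 the unthinned shares were 100% for Adam5, 99.1 ± 1.60% for Adam32, 100% for Adam3 and 93.0 ± 6.48% for Adam18, in cells of greater depth than those of stage 1.

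**Figure D4:**
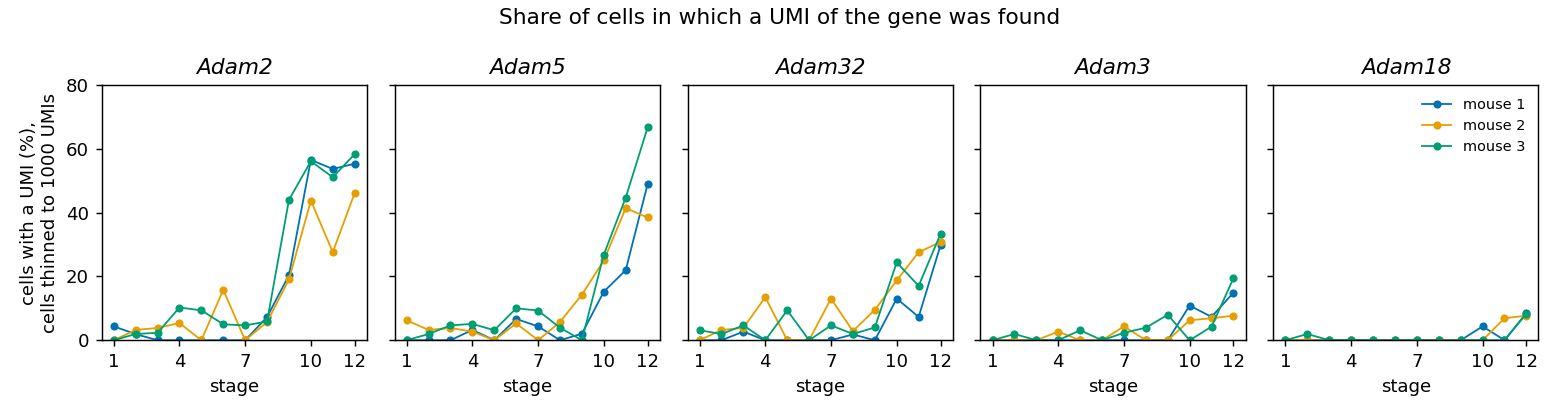
Share of cells (%) with at least 1 UMI of each gene after thinning every cell to 1000 UMIs, by stage, with 1 line per mouse. Adam2 passes 40% in stage 10 in every mouse, with mouse 2 at 27.6% in stage 11 and 46.2% in stage 12, Adam5 passes 35% in stage 12 in every mouse, and Adam18 stays under 10% throughout.

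In most of stages 1 to 8 the gate-sorted library of mouse 3 had higher levels of the 5 genes than the index-sorted one. The exceptions were Adam5 in stage 7, at 75.07 against 75.11 CPM, and Adam18 in stage 8, at 0 against 4.79 CPM, and in stage 6, where both libraries had 0. In stage 1 it had 80.8 CPM of Adam2 against 24.6, 46.4 CPM of Adam5 against 11.2, and 46.4 CPM of Adam32 against 11.2. In stage 5 it had 155 CPM of Adam2 against 28.5. In stage 12 Adam2 was at 881 and 899 CPM in the 2 libraries, and in stage 11 at 791 and 782. The late levels of the other genes were not alike: in stage 12, with 27 cells in the gate-sorted and 9 in the index-sorted library, Adam3 was at 297 against 170 CPM, Adam18 at 84.3 against 35.4, Adam32 at 496 against 342 and Adam5 at 858 against 715. In stage 11 Adam3 was at 86.0 against 84.7 CPM. These are single libraries of 1 mouse, so the gap has no replicate check, and its cause was not tested. Without the gate-sorted library all 5 genes were still called higher in stage 12 than in stage 1, among 1603 called higher of 4912 genes tested.

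Adam18, Adam3, Adam5 and Adam32 lie side by side on chromosome 8, on the minus strand, at chr8:24602246-24948804 (GRCm38, GENCODE M21), a span of 346559 bases. The gaps between neighbours are 2469, 1240 and 11770 bases. Adam2 lies alone of the 6 at chr14:66027329-66077733 and Adam1a at chr5:121518576-121545482. The 4 neighbours did not share 1 course: Adam5 and Adam32 stood at 61.2 ± 4.49% and 56.4 ± 2.44% of their stage 12 level in stage 11, and Adam3 and Adam18 at 27.8 ± 3.11% and 32.8 ± 0.58%. The next gene on the side of Adam32, 806 bases away, is Adam9, a broadly expressed ADAM gene. It was lower in stage 12 (3.30 ± 1.94 CPM) than in stage 1 (20.2 ± 10.4 CPM; log2 fold change -2.06 ± 0.40, edgeR adjusted p = 1.57e-05). Between these stages Adam9 did not fall steadily, with 4.27 ± 2.57 CPM in stage 2 and its highest mean, 42.3 ± 8.21 CPM, in stage 5. Tm2d2 beyond it rose by 2.16 ± 0.20 (adjusted p = 9.88e-13), and Plekha2 missed the threshold (-1.004 ± 0.67, adjusted p = 0.173). Htra4, between these genes, had 6 UMIs. On the other side Ido1 had 6 UMIs, Ido2 had 14 and Tcim had 0. None of these 4 was tested.

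**Figure D5:**
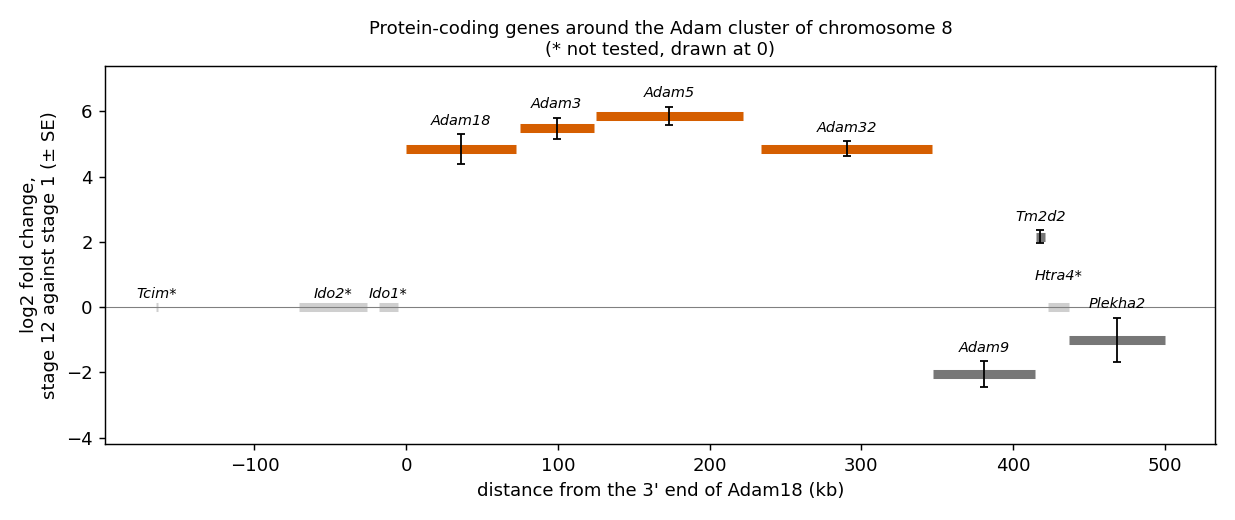
Protein-coding genes within 200 kb of the Adam cluster, drawn to scale by distance from the 3′ end of Adam18 (kb), at their log2 fold change between stage 12 and stage 1 (± SE). The 4 Adam genes in orange lie between 4.84 and 5.86, Adam9 lies at -2.06, and genes with too few UMIs to test are marked and drawn at 0.

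Among the genes tested, which lie on even-numbered autosomes, X and Y or on the lists, those whose course over the 36 mouse and stage sums was most like that of each member were found by Pearson's r of log2(CPM + 1), given as a description because sums share mouse, stage and depth. For Adam2 they were Cox8c (r = 0.99), a testis isoform of a cytochrome c oxidase subunit, Acot7 (0.97) and 1700042G15Rik (0.97). For Adam5 they were 4922502D21Rik, Atp8b3 and Slc2a3 (0.97, 0.97 and 0.96), and for Adam32 Ybx3, Pabpc2 and 1700074P13Rik (0.97, 0.96 and 0.95). Slc2a3 encodes a glucose transporter, and Ybx3 and Pabpc2 encode RNA-binding proteins. For Adam3 they were Atp8b3 (0.88), 1700074P13Rik (0.87) and Cmtm2a (0.87), and for Adam18 Immp2l (0.86), 4921524L21Rik (0.84) and Ttc18 (0.84). Among the 5 members themselves the highest r was that of Adam5 with Adam32, at 0.95, and the lowest that of Adam2 with Adam18, at 0.73.

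Another list held proteins that ADAM3 needs to reach or stay on the sperm surface. Of its 12 genes 11 were in the table and 7 were tested, of which 5 were higher in stage 12 than in stage 1, 1 was lower and 1 was not called, with a median log2 fold change of 3.84. Over all genes tested, 36.4% were called higher and 39.9% lower, with a median of -0.08. Clgn, the calmegin chaperone of fertilin assembly, rose from 49.8 ± 23.6 to 555 ± 72.8 CPM (3.94 ± 0.20, edgeR adjusted p = 1.15e-20) and stood at 465 ± 63.3 CPM already in stage 9. Cmtm2a and Cmtm2b, membrane proteins of the MARVEL domain family, rose by 5.74 ± 0.28 (adjusted p = 7.24e-21) and 4.97 ± 0.34 (adjusted p = 1.21e-16), with 33.5 ± 26.6 and 15.8 ± 10.4 CPM in stage 9. The GPI-anchored proteins Tex101 and Ly6k had their highest mean in stage 9, at 1808 ± 306 and 1059 ± 129 CPM, and stood at 572 ± 11.4 and 390 ± 51.1 CPM in stage 12. Ace was lower (-1.41 ± 0.59, edgeR adjusted p = 0.0291), from only 15 UMIs in stage 1 and 16 in stage 12 over all mice. Its highest mean was 22.1 ± 1.57 CPM in stage 2. Tpst2, a tyrosine sulfotransferase, was not called (-0.11 ± 0.28, edgeR adjusted p = 0.794). Calr3 (71 UMIs), Pdilt (38), Prss37 (21) and Rnase10 (15) were too low to test.

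Among 16 other ADAM genes known from testis, 3 were tested. Adam1b and Adam30 were higher in stage 12 than in stage 1, Adam30 by 5.16 ± 0.55 (edgeR adjusted p = 9.22e-11), and Adam28 was not called (0.22 ± 0.32, adjusted p = 0.528), with 2551 of its 2603 UMIs in mouse 1. The 13 untested genes had 3 to 29 UMIs each in all stages. Among 11 broadly expressed ADAM genes, 4 were tested: Adam10 (-3.02 ± 0.29, adjusted p = 3.89e-12), Adam15 (-3.49 ± 0.49, adjusted p = 3.30e-08) and Adam9 were lower, and Adam17 was not called (-0.21 ± 0.22, adjusted p = 0.380). In the same comparison 36.4% of all genes tested were called higher and 39.9% lower. With 3 and 4 genes tested, these lists are too short to compare as classes. Of 11 other sperm proteins of egg coat passage and gamete fusion, 8 were in the table and only Spesp1, an equatorial segment protein, was tested; it rose by 4.62 ± 0.25 (adjusted p = 1.33e-19). Izumo1, the sperm partner of the egg receptor Juno, had 76 UMIs in all stages and Spam1, a sperm hyaluronidase, had 29.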

How the data were processed

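The authors deposited 3 tables per gene and well: UMI counts, read counts and transcripts, the last being estimated counts, which equal UMIs corrected for tag collisions. The submitters' processing notes name BWA 0.7.10 and mm10, with no role stated; the counting tool is not given in the sources used here. The UMI counts were used, and reads and transcripts (rounded) were alternatives. In mouse 1 the wells of the transcripts and UMI tables were ordered differently and were paired by their profiles (lowest correlation 0.973). Rows off the autosomes, X and Y, and Rn45s (0.432% to 5.29% of UMIs per mouse), stayed out of library sizes. Each well received 1 sorted cell, and doublets were not removed. Limits from a count of 0 cover counting error only.

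For staging, odd-numbered autosomes were used without members and listed genes. Genes found in 20 cells or more were scaled to 10000 UMIs per cell, and the 1500 most variable were aligned across mice with Seurat 5.3.0 (15 dimensions, weight neighbours 50), clustered in scanpy 1.11.5 (15 components, 15 neighbours, Leiden resolution 1.0, 16 clusters) and ordered by diffusion pseudotime (5 components). Of the clusters left out, 3 had a median depth below that of all kept cells divided by 3, and 1 held 12 cells. Counts summed per mouse and stage (36 sums of at least 10 cells) were tested with edgeR 4.0.16 (TMM, filterByExpr, stage plus mouse; DESeq2 1.42.0 as an alternative) on even-numbered autosomes, X, Y and the listed genes. The script was tested on simulated data. SE is the log2 fold change divided by the square root of F, and CPM carry no TMM factor. The mouse is the block because same-numbered sums come from the same animal. Members, lists and markers were chosen with earlier results of these data known. Named genes are the members, tested genes of the lists, and the 3 genes most like each member; the chromosome 8 neighbours, Izumo1, Spam1 and other untested list genes are named beyond that rule.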

Additional observations from a re-analysis of the deposited data

Results flagged for a closer look

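UMIs of these genes were also found outside the 12 stages. The 472 wells with fewer than 1000 UMIs, 179485 UMIs together, held 80 UMIs of Adam2, 38 of Adam5, 30 of Adam32 and 21 of Adam3, all above the 3 that a count of 0 allows. That is 446 CPM of Adam2, against 466 CPM over all cells of the stages. The 215 cells of the 3 low-depth clusters held 277 UMIs of Adam2, 152 of Adam5, 79 of Adam32, 21 of Adam3 and 7 of Adam18. A further 12 cells, with the sperm chromatin genes Prm2 and Prm1 on top, held 29 UMIs of Adam5, 21 of Adam2, 15 of Adam1a, 10 of Adam3 and 9 of Adam32. Adam1a stood at 68.7 CPM there against 1.85 CPM over the stages, with 13 of its 15 UMIs in the 5 cells of mouse 3. These wells entered no comparison, and where their UMIs came from was not tested.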

How the results depend on the processing

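For the comparison of the last with the first stage, all 5 tested genes were called higher under all 18 alternatives. The share of all genes called higher was lowest without an expression filter, 2091 of 9245 tested. It was highest with a filter of at least 50 UMIs over all sums, 2363 of 6325. The calls alone therefore do not set the 5 genes apart. Their log2 fold changes kept their sign, from 2.62 to 5.55 for Adam18, 4.46 to 6.21 for Adam2, 3.28 to 6.52 for Adam3, 3.52 to 6.82 for Adam32 and 4.61 to 7.06 for Adam5. In fits without the replicate block (pairing by animal), the onset by the test was stage 9 for Adam2, 10 for Adam5, 11 for Adam18 and 10 for Adam32. With DESeq2 it was stage 8 for Adam2. Leaving out each mouse gave stages 7 to 8 for Adam2 and 4 to 9 for Adam5. Without the gate-sorted library it was stage 8 for Adam2 and stage 6 for Adam5. The mean onset by level moved to 3.67 (Adam2), 5.67 (Adam5) and 2 (Adam18) at 5% of the highest stage, to 11 (Adam3), 10.7 (Adam18) and 10 (Adam32) at 20%, and to 12 (Adam3), 11 (Adam5), 12 (Adam18) and 11 (Adam32) at 50%. For Adam5 it was stage 9 with the reads and stage 9 without the gate-sorted library. The peak of all 5 genes moved to stage 11 of 12 with even-numbered autosomes and to stage 7 of 8 without alignment, where late cells take another order. Leaving out each mouse, the step into stage 9 ran from -0.49 to 0.17 for Adam3 (positive without mouse 3) and from -0.14 to 3.85 for Adam18 (negative without mouse 1), against -0.18 and 0.62 in all mice, and was called in none of these fits. The cause of these moves was not tested. Alternatives chosen after seeing the data were the 50% mark, the peak under other stagings, the onset by the test without the gate-sorted library or without a composition factor, and all alternatives to the steps. Adam1a and Adam18 are limited by depth, with 73 and 880 UMIs in the stages, and the fold change of Adam3 by its 16 UMIs in stage 1.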
